A study of Homo sapiens with 28 samples.

Results

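The G1 cyclins and their kinases were followed in LNCaP, a human prostate cancer cell line that responds to androgen. The set held 8 of the 61815 genes counted. Its members, named by symbol, were the D-type cyclins CCND1, CCND2 and CCND3, the E-type cyclins CCNE1 and CCNE2, and the kinases CDK2, CDK4 and CDK6. Total RNA was sequenced in 28 libraries that fell into 8 groups in 2 experiments. All cells were wild type per the labels and had been held in charcoal-stripped serum, which is poor in androgen, before treatment. In the 24 h experiment, 4 groups of 3 libraries received vehicle (0.1% DMSO), Senexin B at 1 µM per the labels, R1881 at 0.1 nM, or both R1881 and Senexin B. The study's text gives a different dose of Senexin B, and which one was used could not be settled. In the 72 h experiment, 4 groups of 4 libraries received vehicle (0.1% DMSO), SNX631 at 500 nM, R1881 at 1 nM, or both R1881 and SNX631. R1881 is a synthetic androgen, and Senexin B and SNX631 inhibit the Mediator kinases CDK8 and CDK19. LNCaP is a single line grown here as a culture, so the values describe that line alone. Time, androgen dose and inhibitor all differed between the experiments, so each was fitted alone, and effects from the 2 experiments are set side by side with no test of their difference.

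Cells pass from G1 into DNA synthesis through the activity of cyclin-dependent kinases, each of which is switched on by a cyclin partner. D-type cyclins activate CDK4 and CDK6, which begin to phosphorylate the retinoblastoma protein, and E-type cyclins activate CDK2, which completes this step and helps to start replication. Phosphorylation of the retinoblastoma protein releases E2F transcription factors, whose targets include CCNE1, CCNE2 and the genes of DNA synthesis. Growth of androgen-dependent prostate cancer cells is tied to this step, since androgen withdrawal leaves many of them in G1.

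RefSeq promoter entries (GRCh38.p14) were analysed for 4 of the 8 members, CCND3, CCNE1, CDK4 and CDK6, with 7 entries in all. The promoters of CCND1, CCND2 and CDK2 were not matched in the table, and that of CCNE2 was not analysed here. The stretches of the CDK6 and CCNE1 promoters that lie outside the exons of these genes are shown. Of the members analysed, CDK6 had the largest fold with R1881 and CCNE1 held the most matches to the Sp1 letters. A stretch of 30 bases before a CDK4 start site is shown for its E-box letters. It is not limited to bases outside exons. Counted from the far end, bases outside CDK4 exons spanned chr12:57752522-57752560, so the 30 bases run into an annotated exon. Capitals mark GGGCGG or its complement CCGCCC, the letters of the Sp1 site, or CACGTG, the E-box letters bound by MYC and related factors.
CDK6, chr7:92836595-92836823, minus strand: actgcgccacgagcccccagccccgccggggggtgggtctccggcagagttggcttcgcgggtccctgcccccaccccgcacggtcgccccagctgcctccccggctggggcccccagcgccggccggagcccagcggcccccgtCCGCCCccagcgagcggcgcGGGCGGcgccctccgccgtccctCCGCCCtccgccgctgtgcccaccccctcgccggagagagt
CCNE1, chr19:29811741-29811897, plus strand: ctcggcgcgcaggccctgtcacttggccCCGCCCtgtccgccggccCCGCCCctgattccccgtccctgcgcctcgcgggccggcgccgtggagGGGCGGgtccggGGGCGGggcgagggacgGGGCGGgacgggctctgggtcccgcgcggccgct
CDK4, chr12:57752501-57752530, minus strand: cggtCACGTGtgatagcaacagatCACGTG

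The CDK6 stretch held 3 matches to the Sp1 letters and the CCNE1 stretch 5. Over the full window of 250 bases before each start site, CCNE1 held 7 matches, CDK4 3, the CDK6 entries 3 and 0, and the CCND3 entries 5, 2 and 0. Of 34943 promoter windows of that length, 42.5% held the Sp1 letters on either strand. The CDK4 window held 3 matches to CACGTG, letters found in 6.32% of the windows and searched for only after the sequences had been read. No window of a member held the E2F letters TTTCCCGC or TTTGGCGC, which stood in 1.39% and 0.547% of all windows, or TATAAA (10.8%). These matches describe letters in a window, not bound sites.

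The libraries held 9846595 to 33809419 counts. The highest total belonged to vehicle replicate 3 of the 24 h experiment, and the others held at most 15248512. A floor of 3 counts corresponded to 0.0887 to 0.305 CPM, here scaled by library totals. All other CPM values are counts scaled to a fixed library size with TMM factors. The luminal prostate markers FOLH1, HOXB13, KRT8 and KRT18 matched the label, with no group mean under 285.2 CPM, and KLK3 and TMPRSS2 were high with R1881. Of 9 markers of other cells, 2 passed the floor in any library, COL1A1 at a group mean of 8.22 to 29.5 CPM and SYP at 0.3416 to 1.007 CPM, while KRT5 had 0 counts throughout. The 9 markers together summed to 23.2 to 25.8 CPM in vehicle at 24 h, 15.02 to 15.74 with R1881 and 11.2 to 13.3 with Senexin B, and to 28.6 to 31.8, 18.1 to 25.2 and 18.8 to 21.7 in the matching groups at 72 h. With both agents the sums were 7.64 to 9.36 CPM at 24 h and 10.8 to 13.3 CPM at 72 h. Their part in the results was not tested. The series' design text calls the replicates biological. In bulk RNA, a higher share of cells that use a gene and more of its RNA per cell cannot be told apart.

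Androgen response was checked first on KLK3, which encodes PSA. With R1881 it rose from 1.45 to 112 CPM at 24 h and from 1.42 to 137 CPM at 72 h in the group means.

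Per kilobase of exon, CCND1 (chromosome 11, 69641087 to 69654474, plus strand in GRCh38) and CDK4 (chromosome 12, 57747727 to 57756013, minus strand) were the most abundant members. In vehicle at 24 h, CCND1 stood at 42.3 CPM per kb and CDK4 at 45.0, CCND3 at 5.82, CCNE1 at 5.24, CDK2 at 4.55, CCNE2 at 2.35 and CDK6 at 0.118. CCND1 made up 83.9% to 88.4% of the D-type cyclin level per kb across the 28 libraries, and CDK4 made up 98.8% to 99.9% of the sum of CDK4 and CDK6. CCND2 was below the floor throughout, with 2 counts in vehicle replicate 3 and in Senexin B replicate 1, 1 count in a library with R1881 and SNX631, and 0 in the others after rounding. It did not pass the filter on low counts, so 7 of the 8 members were tested.

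**Figure D1:**
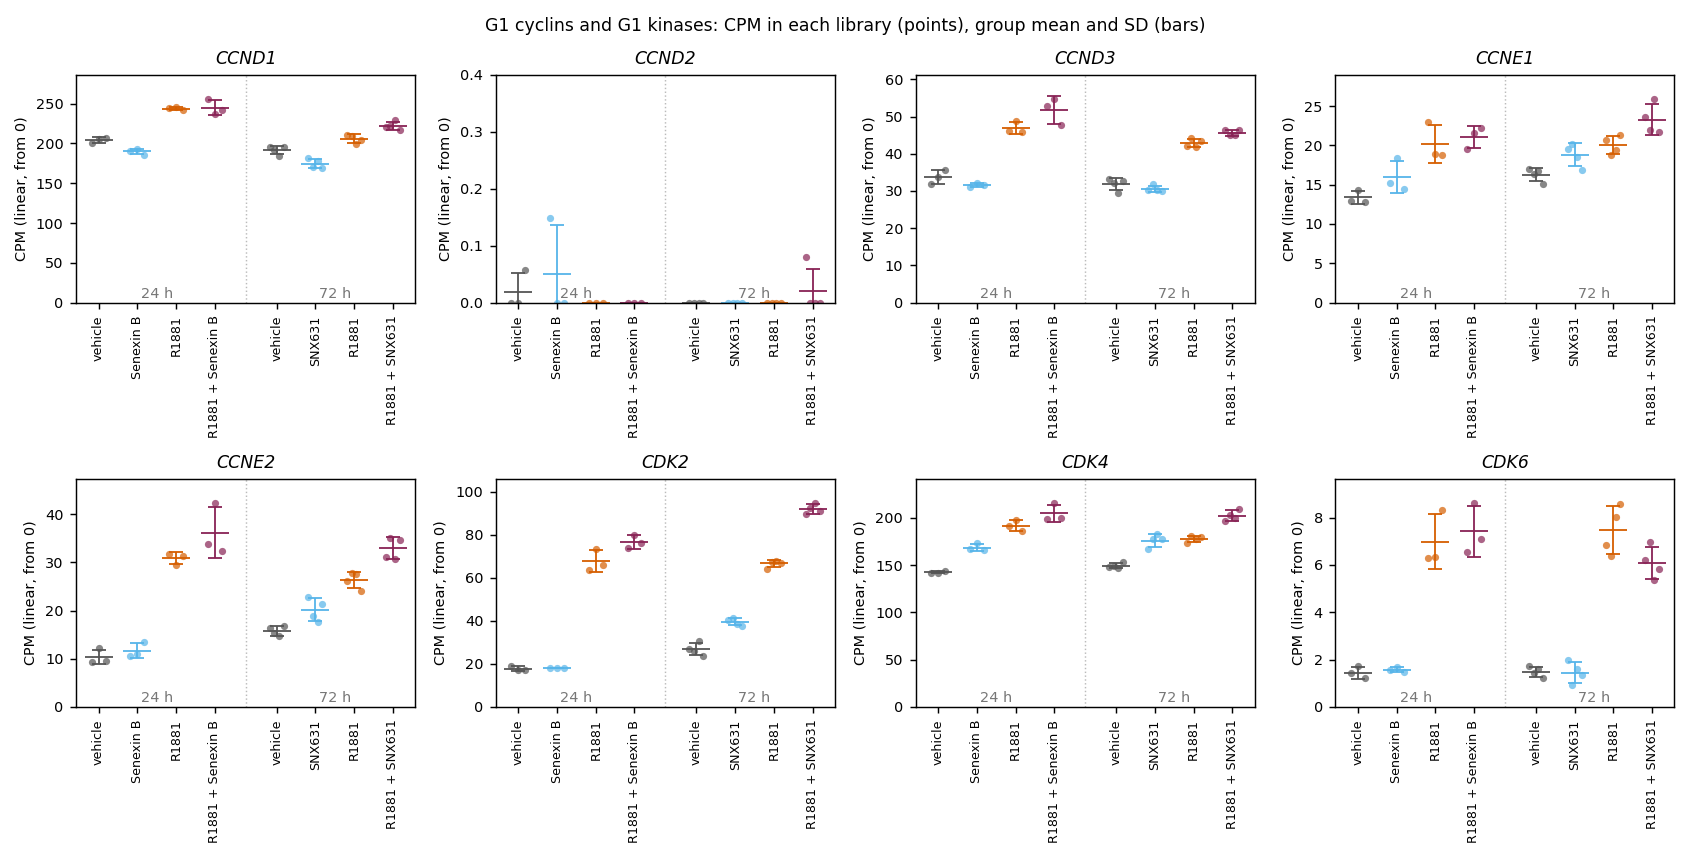
CPM of each G1 cyclin and kinase (linear axes from 0) in the 8 groups; points are libraries, and bars give the group mean and SD (n = 3 at 24 h, 4 at 72 h). CDK2, CCNE2 and CDK6 stood apart most clearly with R1881, and CCND2 lay at or below 0.149 CPM in every library.

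R1881 raised all 7 members tested at both times by edgeR FDR under 0.01, though under scaling by library totals alone the rise of CCND1 at 72 h turned and that of CCNE1 at 72 h missed the limit (log2 fold change 0.19, FDR 0.0227), and CDK6, CDK2 and CCNE2 had the largest folds. CDK6 rose 5.07-fold at 24 h and 4.98-fold at 72 h, CDK2 rose 3.87-fold and 2.48-fold, and CCNE2 rose 3.02-fold and 1.67-fold. The rise of CCND1, the main D-type cyclin, was 1.19-fold and 1.07-fold, and that of CDK4 1.34-fold and 1.19-fold. Among all genes tested at 24 h, 26.3% of 15948 were higher by FDR alone, and at 72 h 27.6% of 16074. By the limits of the study (FDR under 0.01 and over 1.5-fold), 4 members were called at 24 h (CDK6, CDK2, CCNE2 and CCNE1), all higher, beside 9.81% of all genes called higher. At 72 h CDK6, CDK2 and CCNE2 were called, all higher, 3 members beside 9.7% of all genes. The median log2 fold change of the tested members was 0.60 at 24 h and 0.42 at 72 h, and that of all genes tested was -0.02 and -0.01.

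Among the D-type cyclins, CCND1 encodes cyclin D1, the partner through which growth signals most often reach CDK4. Its 3 vehicle libraries at 24 h held 200.6, 206.2 and 206.5 CPM, and the R1881 libraries 244.1, 245.2 and 242.4. At 72 h the vehicle libraries held 195.0, 192.2, 184.5 and 195.0 CPM, and the R1881 libraries 211.2, 209.7, 199.7 and 204.0. The groups did not overlap at either time, but the difference was narrow at 72 h, with a log2 fold change of 0.10 ± 0.03 (SE) and an edgeR FDR of 0.00346. Scaling by library totals alone moved all genes by -0.11 on the log2 scale in that comparison and turned the CCND1 change to -0.0045 (FDR 0.899), so its direction at 72 h depended on the scaling. The FDR limit was also missed without vehicle replicate 3 (log2 fold change 0.08, FDR 0.0287), R1881 replicate 1 (0.09, FDR 0.0156) or R1881 replicate 2 (0.09, FDR 0.0193).

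CCND3, on chromosome 6 (41934933 to 42050357, minus strand), encodes cyclin D3. It held 31.8, 33.9 and 35.6 CPM in vehicle and 46.0, 48.8 and 45.8 CPM with R1881 at 24 h. At 72 h it held 29.5 to 33.1 CPM in 4 vehicle libraries and 41.8 to 44.4 CPM in 4 R1881 libraries. Every R1881 library was above every vehicle library of its experiment. The log2 fold changes were 0.45 ± 0.06 and 0.42 ± 0.05 (SE), past the FDR limit (5.08e-08 and 7.89e-10) and under 1.5-fold. With R1881 the share of CCND3 in the D-type level per kb was 13.8% at 24 h, beside 12.1% in vehicle, and 14.8% beside 12.1% at 72 h (group means).

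Of the E-type cyclins, CCNE2 had the larger fold at both times, a difference between the genes that was not tested. CCNE1 (chromosome 19, 29811898 to 29824308, plus strand) held 12.98, 14.33 and 12.80 CPM in vehicle and 23.0, 18.9 and 18.7 CPM with R1881 at 24 h. CCNE2 (chromosome 8, 94879770 to 94896678, minus strand) held 9.38, 12.1 and 9.56 CPM in vehicle and 31.7, 29.5 and 31.4 CPM with R1881. For each gene the R1881 libraries lay above the vehicle libraries without overlap. The log2 fold change at 24 h was 0.60 ± 0.09 for CCNE1 and 1.60 ± 0.10 for CCNE2 (SE). The CCNE1 call stood at 1.52-fold, close to the limit, and was lost on fold in 3 of 19 alternatives, among them those without R1881 replicate 1 (log2 fold change 0.51) and without vehicle replicate 3 (0.55).

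At 72 h the vehicle level of CCNE2 was 14.7 to 16.7 CPM and the R1881 level 24.0 to 27.7 CPM, 4 libraries each. CCNE1 stood at 15.1 to 17.0 and 18.8 to 21.4 CPM in those groups. Neither gene overlapped between its groups, and the log2 fold changes were 0.74 ± 0.08 for CCNE2 and 0.29 ± 0.07 for CCNE1 (SE). CCNE1 made up 69.1% ± 1.8 (SD, n = 3) of the E-type level per kb in vehicle at 24 h and 52.9% ± 2.5 with R1881. The shares at 72 h were 64.1% ± 2.4 and 56.7% ± 3.0 (SD, n = 4). The summed E-type level went from 7.598 to 14.94 CPM per kb at 24 h and from 9.97 to 13.9 at 72 h.

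**Figure D2:**
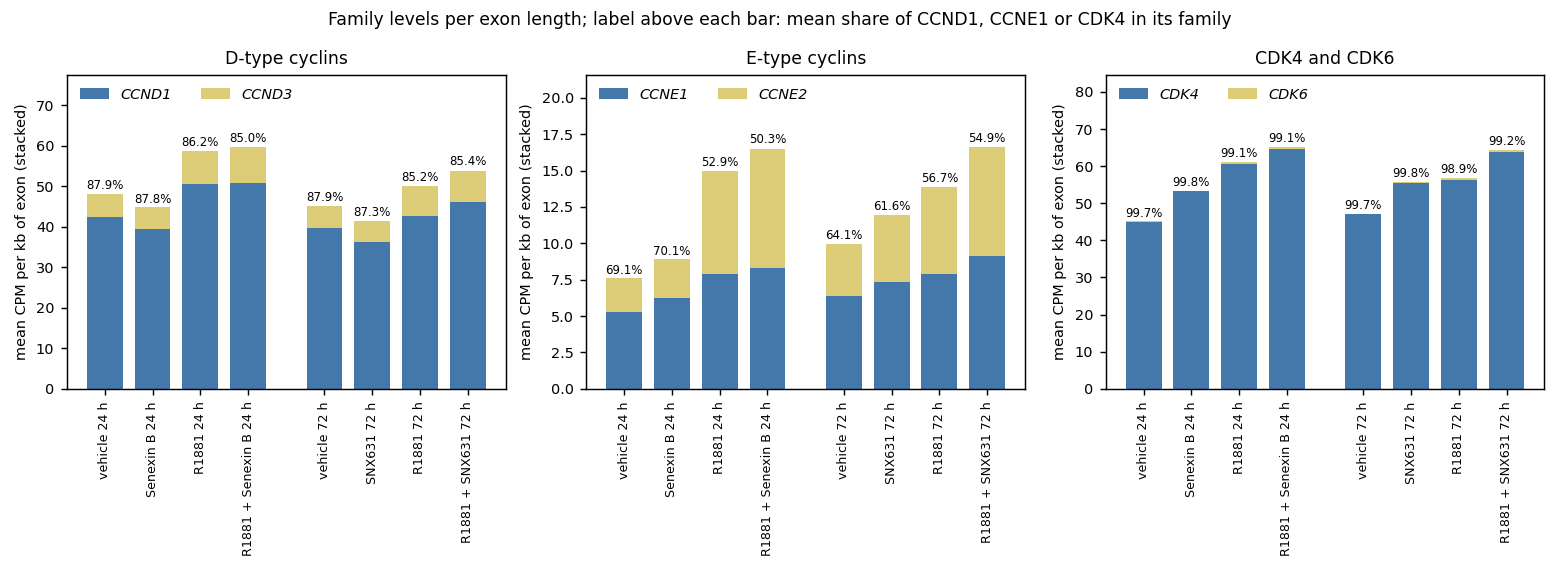
Mean level per kb of exon, stacked by gene on linear axes from 0, in the 8 groups for the D-type cyclins, the E-type cyclins and the pair CDK4 and CDK6; the label gives the mean share of CCND1, CCNE1 or CDK4. The CCNE1 share was 69.1% in vehicle at 24 h and 52.9% with R1881, while CDK6 remained a thin layer beside CDK4 in every group.

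Of the kinases, CDK2 (chromosome 12, 55966769 to 55972784, plus strand), the partner of cyclins E and A, had the lowest FDR of the members at both times. It held 19.1, 17.0 and 17.1 CPM in vehicle at 24 h and 63.6, 73.5 and 66.0 CPM with R1881. At 72 h it held 26.9, 26.2, 30.7 and 23.6 CPM in vehicle and 64.2, 67.5, 67.7 and 67.1 CPM with R1881. The groups were far apart at both times, and the log2 fold changes were 1.95 ± 0.06 (FDR 3.61e-23) and 1.31 ± 0.05 (SE, FDR 4.42e-23).

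CDK6 (chromosome 7, 92604921 to 92836594, minus strand) showed a large fold at a low level. Its vehicle libraries held 15, 24 and 42 counts at 24 h, the last in the deepest library, or 1.42, 1.71 and 1.21 CPM. The R1881 libraries held 68, 71 and 95 counts, or 6.31, 6.34 and 8.31 CPM. At 72 h CDK6 held 1.23 to 1.72 CPM in vehicle and 6.38 to 8.56 CPM with R1881. All R1881 libraries were above all vehicle libraries, and the log2 fold changes were 2.34 ± 0.19 and 2.32 ± 0.19 (SE). Even so, CDK6 made up 0.937% of the sum of CDK4 and CDK6 per kb with R1881 at 24 h and 1.07% at 72 h, beside 0.261% and 0.258% in vehicle (group means).

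CDK4, the main kinase of the D-type cyclins in these cells by level, held 141.8, 142.1 and 144.1 CPM in vehicle and 191.4, 197.2 and 186.0 CPM with R1881 at 24 h. At 72 h its vehicle libraries held 147.0 to 153.2 CPM and its R1881 libraries 173.7 to 180.4 CPM. The groups did not overlap, and the log2 fold changes were 0.42 ± 0.04 and 0.25 ± 0.03 (SE). Exons of TSPAN31 on the opposite strand cover 43.2% of the exon bases of CDK4. The libraries were made with a kit that marks strand, but whether the counting used strand is not stated, so reads of the pair might be shared. TSPAN31 went the other way, from 28.6 to 16.1 CPM with R1881 at 24 h (log2 fold change -0.84 ± 0.07 SE) and from 24.7 to 16.1 CPM at 72 h. INTS8 covers 37.0% of CCNE2 exon bases in the same manner and stood at 76.8 CPM in vehicle and 66.1 CPM with R1881 at 24 h.

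R1881 was also compared in cells that received an inhibitor in both groups. With Senexin B at 24 h, 7 of 7 tested members were higher by FDR and 4 were called, beside 26.3% and 9.97% of all genes. The called members were CDK6 (4.68-fold), CDK2 (4.23-fold), CCNE2 (3.06-fold) and CCND3 (1.63-fold). CCNE1 was 1.32-fold higher there and was not called. With SNX631 at 72 h, 7 of 7 were higher by FDR and 3 were called, beside 29.8% and 10.1% of all genes. These were CDK6 (4.16-fold), CDK2 (2.30-fold) and CCNE2 (1.62-fold). Under library totals alone CCNE1 (log2 fold change 0.19, FDR 0.013) and CDK4 (0.08, FDR 0.0155) missed the FDR limit there, and without a filter on low counts CCND3 passed both limits (0.59). In each of the 4 R1881 comparisons the groups of all 7 tested members did not overlap in CPM. Among all genes tested that was so for 62% with R1881 alone and 62.2% with Senexin B present at 24 h, and for 54.8% with R1881 alone and 57.8% with SNX631 present at 72 h.

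**Figure D3:**
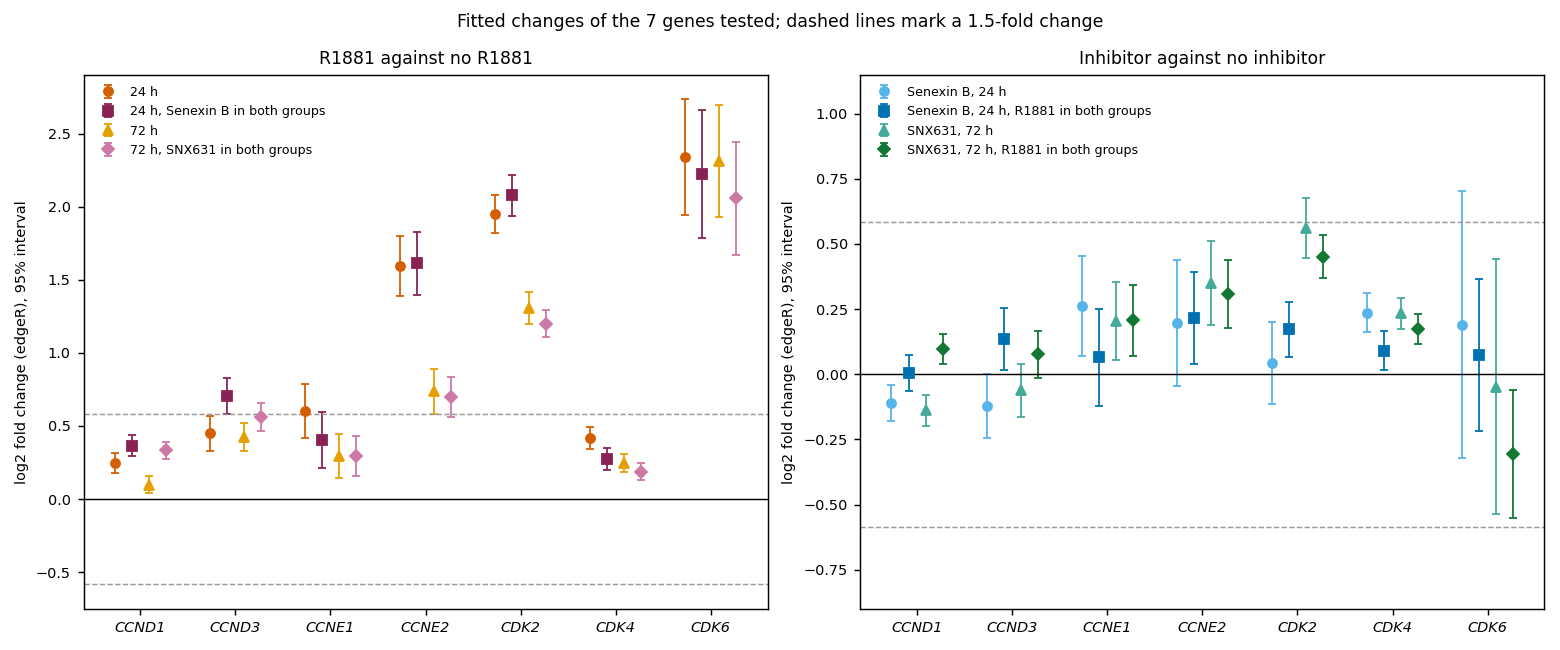
Log2 fold changes of the 7 tested members with 95% intervals, for R1881 against no R1881 (left) and for inhibitor against no inhibitor (right), each in 4 comparisons; dashed lines mark 1.5-fold. All R1881 changes lay above 0, from 0.10 for CCND1 at 72 h, a value that turned negative under library totals alone, to 2.34 for CDK6 at 24 h, and no inhibitor change passed both limits.

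With the inhibitors, no member passed both limits in any of the 4 comparisons, and the changes past the FDR limit alone were small. Groups did not overlap in CPM for 3 members with Senexin B alone, beside 45.6% of all genes, and 3 with R1881 present, beside 42%. That was so for 4 members with SNX631 alone, beside 33%, and 6 with R1881 present, beside 37.8%. Senexin B alone at 24 h moved CDK4 past the FDR limit, 1.18-fold higher (log2 fold change 0.24 ± 0.04 SE, FDR 6.15e-06). Its libraries held 166.7, 173.1 and 165.9 CPM with Senexin B, above the 141.8 to 144.1 CPM of vehicle. By FDR alone 1 member was higher and 0 lower in that comparison, beside 13.5% and 11.7% of all genes, and by both limits 0 were called, beside 3.79%. At an unadjusted p under 0.05 there were 3 members, and DESeq2 gave 1 past the FDR limit and 0 called. CCND1 stood at 191.0, 193.0 and 185.8 CPM with Senexin B, under every vehicle library, with a log2 fold change of -0.11 ± 0.03 (SE) and an FDR of 0.0103. TSPAN31, the neighbour that overlaps CDK4, was lower with Senexin B alone (log2 fold change -0.56) and, at 72 h, with SNX631 alone (-0.69).

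With R1881 present at 24 h, Senexin B left CDK2 higher at an FDR of 0.00972, at 73.6, 79.9 and 76.1 CPM beside 63.6, 73.5 and 66.0 CPM. The lowest library with both agents lay just above the highest with R1881 alone, the log2 fold change was 0.17 ± 0.05 (SE), and the call by FDR was kept in 3 of 19 alternatives. By FDR 1 member was higher and 0 lower, beside 12.7% and 9.99% of all genes, and by both limits 0 were called, beside 3.12%. At an unadjusted p under 0.05 there were 4 members, and DESeq2 gave 0 past the FDR limit. CCND1 was at 237.3 to 255.9 CPM with both agents and 242.4 to 245.2 CPM with R1881 alone, so its groups overlapped.

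SNX631 alone at 72 h was tied to higher CDK2, CCNE2 and CDK4 and lower CCND1. CDK2 held 40.5, 41.4, 38.7 and 37.8 CPM with SNX631, above the 23.6 to 30.7 CPM of vehicle, and the log2 fold change was 0.56 ± 0.06 (SE, FDR 2.12e-10). CDK2 fell just short of 1.5-fold (1.48-fold), and without vehicle replicate 3 it passed that limit (log2 fold change 0.63). CCNE2 was 1.27-fold higher, at 17.7 to 22.9 CPM beside 14.7 to 16.7, and CDK4 1.18-fold higher, at 166.5 to 182.6 CPM beside 147.0 to 153.2. CCND1 held 168.6 to 181.1 CPM with SNX631 and 184.5 to 195.0 CPM in vehicle, a log2 fold change of -0.14 ± 0.03 (SE, FDR 0.000184). Thus 3 members were higher and 1 lower by FDR, beside 14.4% and 12.5% of all genes, and 0 were called by both limits, beside 4.77%. At an unadjusted p under 0.05 there were 5 members, and DESeq2 gave 4 past the FDR limit and 0 called.

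With R1881 present at 72 h, SNX631 was again accompanied by higher CDK2, at 89.7 to 94.6 CPM beside 64.2 to 67.7 CPM (log2 fold change 0.45 ± 0.04 SE, FDR 1.27e-11). CCNE2 (1.24-fold), CDK4 (1.13-fold) and CCND1 (1.07-fold) were also higher by FDR. The CCND1 call was lost under library totals alone (log2 fold change 0.06, FDR 0.0632) and without R1881 replicate 3 (FDR 0.0309) or 4 (0.0154) or replicate 1 (0.0122) or 3 (0.0392) of the group with both agents. CDK6 stood at 5.36 to 6.98 CPM with both agents and 6.38 to 8.56 CPM with R1881 alone, overlapping ranges with an FDR of 0.0381. By FDR 4 members were higher and 0 lower, beside 17.8% and 15.4% of all genes, and 0 were called by both limits, beside 4.12%. At an unadjusted p under 0.05 there were 6 members, and DESeq2 gave 4 past the FDR limit and 0 called.

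Whether an inhibitor changed the response to R1881 was tested by the interaction of the pair. CCND1 at 72 h was the 1 member past the FDR limit, beside 7.09% of all genes, and 0 members passed both limits, beside 1.19%. The response of CCND1 to R1881 was 0.10 on the log2 scale without SNX631 and 0.33 with it, a difference of 0.24 ± 0.04 (SE, FDR 5.38e-05) that ranged from 0.22 to 0.25 over 23 alternatives. In levels, CCND1 was lower with SNX631 in the absence of R1881 and higher with SNX631 in its presence, the latter a call that 5 of 23 alternatives lost. At 24 h 0 members passed either limit by edgeR, beside 2.09% and 0.577% of all genes. DESeq2 gave 0 there as well, and 3 members had an unadjusted p under 0.05. The CCND1 difference at 24 h was 0.12, with a 95% interval from 0.02 to 0.21 and an FDR of 0.19. That of CCND3 was 0.26, from 0.09 to 0.43, with an FDR of 0.0771. The CDK4 difference went the other way, at -0.14, from -0.25 to -0.04, with an FDR of 0.119.

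The order of the 8 groups in CPM differed by gene. For CDK6 the 4 groups with R1881 lay above the 4 without, and the ranges of neighbours overlapped at every step but that one. CDK2 had its lowest mean in vehicle at 24 h (17.7 CPM), overlapping with Senexin B, followed by vehicle at 72 h (26.9), SNX631 (39.6), R1881 at 72 h (66.6) overlapping with R1881 at 24 h (67.7), R1881 with Senexin B (76.5) and R1881 with SNX631 (91.9). CCND1 was lowest with SNX631 alone (174.6 CPM) and highest with R1881 and Senexin B (245.1 CPM). CDK4 with SNX631 alone (175.9 CPM) and with R1881 alone at 72 h (177.8 CPM) overlapped. Of 49 steps between neighbouring groups over the 7 tested members, 20 showed no overlap. The share over all genes was not computed, and steps between the experiments mix time, androgen dose and inhibitor. The count is a description only.

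Genes that act on or after the G1 kinases were read from lists of known function. All 14 of 14 S phase genes controlled by E2F were called higher with R1881 at both times, beside 9.81% and 9.7% of all genes. Among them were RRM2 (log2 fold change 3.98 at 24 h and 2.18 at 72 h), a subunit of ribonucleotide reductase, CDC6 (3.90 and 1.90), which loads the replicative helicase, TYMS (2.53 and 1.66), which makes thymidylate, and the helicase subunit MCM4 (2.30 and 1.42). The S and M phase cyclins CCNA2, CCNB1 and CCNB2 and the kinase CDK1 were called higher in 4 of 4 cases at both times, CCNA2 by 2.63 and 1.71 and CDK1 by 2.06 and 1.41 on the log2 scale.

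Of 13 pocket protein, E2F and DP genes, R1881 left 5 called higher at 24 h and 4 at 72 h, beside 9.81% and 9.7% of all genes, and none lower. E2F1 (2.98 and 1.75), E2F2 (3.14 and 1.44), E2F7 (3.69 and 2.12) and E2F8 (3.50 and 1.86) were called at both times, while RB1, singled out after its values were seen, was not past the FDR limit (0.08 and 0.06). E2F1 and E2F2 activate transcription, and E2F7 and E2F8 repress it. Of 7 CDK inhibitor genes tested at 24 h, 1 was called higher and 2 were called lower, beside 9.81% and 9.19% of all genes. At 72 h 2 of them were called higher and none was called lower, beside 9.7% and 10.1%. CDKN2C, an inhibitor of CDK4 and CDK6, was called higher at both times (1.22 and 1.44). CDKN1A, an inhibitor of cyclin-CDK complexes that was also singled out afterwards, was called lower at 24 h (-0.92) and was past the FDR limit but under 1.5-fold at 72 h (-0.53).

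Of 5 activators and chaperones of the G1 kinases, 1 was called higher at each time, CDC25A (2.32 and 1.33), the phosphatase that removes inhibitory phosphates from CDK2, beside 9.81% and 9.7% of all genes called higher. Of 9 genes for turnover of G1 cyclins and of the CDKN1B product, 2 were called higher at 24 h, CKS1B (1.36) and, named after its value was seen, SKP2 (0.89), and 1 at 72 h, CKS1B (1.11), beside the same shares. Without R1881, SNX631 at 72 h went with 12 of 14 S phase genes called higher and all 14 higher by FDR, and Senexin B at 24 h with 3 called and 12 higher by FDR, beside 2.82% and 2.02% of all genes called higher and 14.4% and 13.5% higher by FDR. CDC6 (1.18 with SNX631, 1.05 with Senexin B), RRM2 (1.05 and 0.71), MCM2 (0.91 and 0.80), CDC25A (0.74 and 0.68), E2F7 (1.33 and 0.95) and CDK1 (1.36 and 0.94) were called in each. The list of E2F7 had 5 of 13 genes called higher with SNX631 and 1 with Senexin B, and that of CDC25A 1 of 5 with each. Of 7 CDK inhibitor genes, 2 were called lower with Senexin B alone and 0 with SNX631 alone, beside 1.77% and 1.94% of all genes. With R1881 present these counts were 0 and 1, beside 1.5% and 2.24%. In the presence of R1881, 2 of 14 S phase genes were called higher with SNX631, MCM4 (0.65) and, named after its value was seen, PCNA (0.59), and 14 were higher by FDR, beside 1.89% and 17.8% of all genes. With Senexin B 0 of the 14 were called and 10 were higher by FDR, beside 1.61% and 12.7%, and RRM2 stood at -0.15. CDK1 was called higher with each inhibitor there (0.71 with Senexin B and 1.02 with SNX631), while CCNA2, CCNB1 and CCNB2 were not. By FDR alone 4 of these 4 genes were higher there with SNX631 and 1 with Senexin B, beside 17.8% and 12.7% of all genes. Without R1881, 4 of the 4 were called higher with SNX631 and 1 with Senexin B, beside 2.82% and 2.02%. By the interaction test at 72 h, the R1881 response of 8 of the 14 S phase genes and 4 of these 4 was smaller with SNX631 by FDR. For all genes the share on that side was 4.1%. By both limits these counts were 2 and 0, beside 0.821%. With Senexin B at 24 h they were 3 and 1 by FDR, beside 1.02%, and 2 and 0 by both limits, beside 0.332%.

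**Figure D4:**
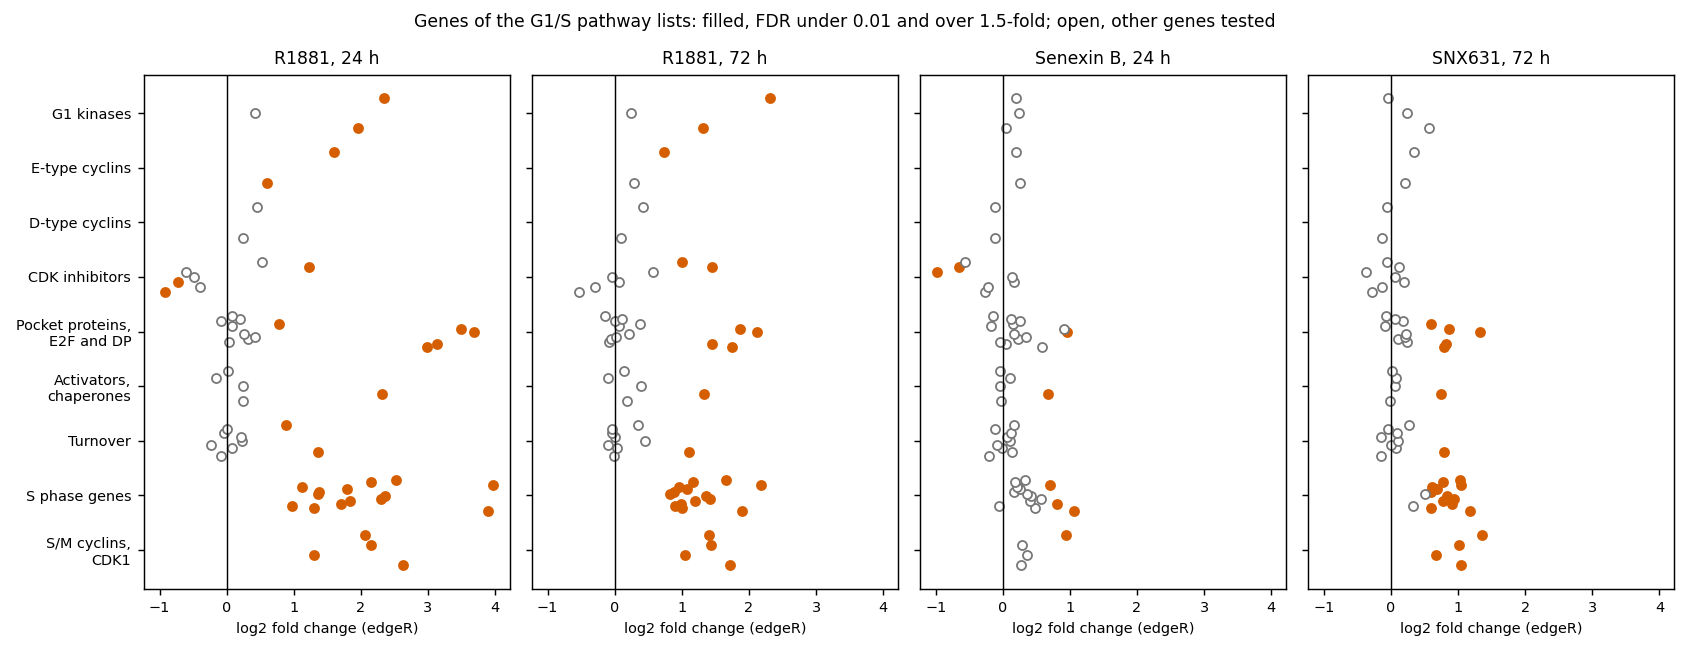
Log2 fold changes (1 scale for all panels) of every tested gene of 9 lists in 4 comparisons without the other agent; filled points passed FDR under 0.01 and 1.5-fold, and vertical offsets only separate genes. All 14 S phase genes and 4 of 4 genes of the CDK1 list were called with R1881 at 24 h and at 72 h, while the D-type cyclins had no called gene in these panels.

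Genes whose levels ran most like those of a member were sought over the 28 libraries, after the mean of each experiment had been removed, among 13473 genes. The points share libraries and treatments, so the coefficients are a description. CDK2 was nearest to MSH6 (Pearson's r = 0.993), which encodes a mismatch repair protein, TPX2 (0.992), a spindle factor, and MYBL2 (0.990), a transcription factor of the cell cycle. CCNE2 was nearest to IQCB1 (0.980), E2F2 (0.979) and the spindle checkpoint kinase TTK (0.974). CDK4 was nearest to CDK1 (0.979), the helicase subunit MCM2 (0.979) and the chaperonin subunit CCT6A (0.972), and CCNE1 to CDCA2 (0.926), HILPDA (0.925) and KNTC1 (0.922).

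For CDK6 the nearest genes were PDXDC1 (0.981), MPHOSPH9 (0.980) and FAM174B (0.980), and for CCND3 they were CMC2 (0.978), TACC1 (0.977) and PDHX (0.976). CCND1 ran most like ARHGEF37 (0.957) and LGMN (0.952). Within the set, CDK2 and CCNE2 had the highest coefficient (0.962) and CCND1 and CDK4 the lowest (0.636).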

How the data were processed

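RNA-seq of 28 LNCaP libraries was analysed from a table of gene-level estimated counts that the authors deposited. The submitters' processing notes name FastQC, cutadapt 2.8, STAR 2.7.2b, featureCounts from Subread 2.0.3, and the builds GRCh38.p13 and GRCm39. The annotation release and the use of strand in counting are not given in the sources used here, and 16.9% of the values above 0 were fractional, so expected counts were rounded. 2 non-gene entries, both at 0, were left out.

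Samples were grouped by their labels, and each experiment (12 and 16 libraries) was fitted alone with edgeR 4.0.16 (R 4.3.3, limma 3.58.1): TMM scaling, filterByExpr (minimum count 10, minimum total 15), the quasi-likelihood test, and Benjamini-Hochberg adjustment (FDR) over all 15948 or 16074 genes that passed. As in the study, a gene was called when its FDR was under 0.01 and it changed over 1.5-fold. The fits were tested on simulated data. CPM for description used TMM factors over all 28 libraries, and levels per kb used union exon lengths of GENCODE 29, whose GRCh38 coordinates are given. The 4 groups of an experiment share libraries between comparisons, so those comparisons are not independent. The p-values measure the spread between these libraries, which was small. The coefficient of variation beyond counting error, common to all genes, was 2.72% at 24 h and 2.38% at 72 h. How far the cultures behind the libraries were independent cannot be told from the counts. Counting floors cover counting error only.

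The members and lists were chosen with earlier results of these data known. Within each list, up to 4 genes past both limits in the same direction at both times were named, by mean change, for R1881 or the inhibitors. The likeness search took genes of at least 1 CPM (prior count 2), 3 for each member, of which 1 is not reported here. Alternatives were DESeq2 1.42.0 and its size factors, library totals, other filters, a replicate block, a joint fit, and leaving out each library. Protein sequences were not used here.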

Additional observations from a re-analysis of the deposited data

Results flagged for a closer look

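The response of CCND1 to R1881 differed between cells without and with SNX631 at 72 h, by the test of the interaction itself. The log2 difference was 0.2354 (95% interval from 0.1536 to 0.3171, edgeR FDR 5.38e-05). CCND1 went from 191.7 to 206.2 CPM without SNX631 and from 174.6 to 222.0 CPM with it in the group means, and all 4 libraries of each R1881 group lay above the 4 libraries without R1881. Scaling by library totals alone turned the first of these changes, but not the difference.

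In cells given SNX631 alone, CCND3 stood at 31.86 CPM in replicate 2, while the other 3 libraries held 29.96, 30.27 and 30.29 CPM. The gap to its neighbour was large against the range of the group by Dixon's limit. The limit was applied to 28 sets of 4 libraries and 1 met it, while chance alone gives about 1 in 20.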

How the results depend on the processing

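Counts of members by both limits or by FDR moved by over 1.5 times in 3 comparisons. For Senexin B alone, members past the FDR limit went from 1 to 2, with CCND1 added, under library totals, without a filter on low counts, with the replicate block and in a joint fit of all 28 libraries, and ranged from 1 to 2 when single libraries were left out, with 2 reached without R1881 replicate 2. For Senexin B with R1881 the count went from 1 to 0, with CDK2 lost, under DESeq2 size factors, library totals, no filter, a stricter filter and DESeq2, and ranged from 0 to 1 when single libraries were left out. It stayed at 1 only without R1881 replicate 2 among these. For SNX631 alone, members called ranged from 0 to 1, with CDK2 called without vehicle replicate 3. The D-type cyclin, E-type cyclin and CDK4 shares all depend on length. Without division by length the mean shares were 84.29% for CCND1, 46.69% for CCNE1 and 97.79% for CDK4, beside 86.57%, 59.88% and 99.42%.

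Log2 values that changed sign were small or imprecise. Under library totals, R1881 at 72 h gave -0.004532 for CCND1, Senexin B with R1881 gave -0.03077 for CCND1, and the 72 h interaction gave -0.00339 for CCNE1. Senexin B with R1881 gave -0.001159 for CCND1 without a filter and -0.005591 with a stricter one. When single libraries were left out, CCND1 for Senexin B with R1881 ranged from -0.03408 to 0.02716 and CDK6 from -0.03751 to 0.2112. CDK6 ranged from -0.01938 to 0.3164 for Senexin B alone, from -0.2281 to 0.1318 for SNX631 alone and from -0.2525 to 0.09216 for the 24 h interaction. CCNE2 ranged from -0.1006 to 0.1265 for that interaction and from -0.09818 to 0.02157 for the 72 h interaction, where CCNE1 ranged from -0.05482 to 0.04199. The causes were not tested.

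Samples of different groups with the same replicate number deviated together little or not at all (r between -0.0146 and 0.0668 at 24 h, between -0.0678 and 0.0729 at 72 h). The median r was 0.0135 for the same number and -0.00925 for different numbers at 24 h, and -0.00826 and 0.00263 at 72 h. At 24 h 7 of 12 libraries correlated best with their own number, and at 72 h 2 of 16. The numbers were not taken as pairs. With the replicate block, members past the FDR limit for Senexin B were 2 in place of 1, and no other count of members changed. Depth limits CDK6, at 12 to 99 counts, and CCND2, which gave no test.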
